A study of Mus musculus with 3 samples.

Results

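The cell cycle genes described here are 40 of the 32285 genes in the count tables of glomerular single-cell RNA sequencing libraries from mice with and without lupus nephritis (LN). They are a list of named genes with known roles in cell division, and the rule that sets the list uses no level measured in these libraries, although earlier results of these data were known when it was drawn up. Of the 40 genes, 25 act in mitosis and 15 in DNA replication. The study compared glomeruli of control mice, of MRL/lpr mice and of MRL/lpr mice given mesenchymal stem cells of human umbilical cord (hUC-MSCs), with 1 library for each group. MRL/lpr mice carry the lpr mutation of Fas and develop an autoimmune disease with nephritis. The female MRL/lpr mice were bought at 6 to 8 weeks of age and entered the model group at about 16 weeks, once proteinuria had developed. Treated mice carried the same mutation, received hUC-MSCs by vein and were examined at 21 days. The labels name no strain for the sequenced control. Elsewhere in the study the controls were MRL/MpJ mice, bought at the same age. The number of mice behind each library is not given in the sources used here. The cells came from enriched glomeruli, so other parts of the kidney can be present in small numbers. With 1 library per group there is no replicate check: no p-value is given, the group and its library cannot be told apart, and the exact 95% intervals in brackets cover counting error only.

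A cell that divides first copies its DNA in S phase and then separates the copies in mitosis, and each step has its own set of genes. Replication genes encode the sliding clamp, the helicase and the enzymes that make nucleotides, and many of them are also used for DNA repair in cells that do not divide. Mitotic genes encode the cyclins and kinases that start mitosis, the centromere and checkpoint proteins, and the spindle and cytokinesis machinery, and their mRNAs are nearly absent from resting cells. In the healthy adult glomerulus few cells divide, and podocytes are known as cells that rarely do. Proliferation of mesangial, endothelial and infiltrating immune cells is a recognised feature of lupus nephritis.

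This programme is encoded in promoters: E2F factors act at replication genes, and the DREAM and MuvB complexes act at mitotic genes through the cell cycle genes homology region (CHR), often next to CCAAT boxes bound by NF-Y. RefSeq promoters (build GRCm38.p6, from 250 bases before to 50 bases after the start of transcription) were found for 21 of the 25 mitotic and 13 of the 15 replication members. Ccna2, Aurkb, Tpx2, Kif20a, Mcm4 and Gins2 had no entry. Prc1, Mcm7 and Uhrf1 had more than 1 entry. Each member was counted once, with a match in any of its entries, while the share of all promoters was counted by entry. A CHR, searched as TTTGAA or TTCGAA on both strands, was present in 17 of 21 mitotic promoters (81.0%), 3 of 13 replication promoters (23.1%) and 19.2% of all 32851 promoters. Upstream of the start alone, the CHR was in 8 of 21 mitotic (38.1%) and 3 of 13 replication promoters (23.1%), against 17.2% of all. CCAAT stood in 19 of 21 mitotic promoters (90.5%), 10 of 13 replication promoters (76.9%) and 37.4% of all. An E2F site, searched as TTTGGCGC, TTTGCCGC, TTTCGCGC or TTTCCCGC on both strands, was in 1 of 21 mitotic promoters (4.76%), 6 of 13 replication promoters (46.2%) and 2.26% of all. The 4 promoters below are those of the members with such a match upstream of the start that had most UMIs in barcodes with 3 or more members, 2 of each kind. Each is the 250 bases before the start, 5′ to 3′ on the strand of the gene. Capitals mark the CHR in Ube2c (chr2:164769679-164769928, plus strand) and Top2a (chr11:99024190-99024439, minus strand), and the E2F site in Mcm6 (chr1:128359706-128359955, minus strand) and Mcm7 (chr5:138171884-138172133, minus strand).
Ube2c: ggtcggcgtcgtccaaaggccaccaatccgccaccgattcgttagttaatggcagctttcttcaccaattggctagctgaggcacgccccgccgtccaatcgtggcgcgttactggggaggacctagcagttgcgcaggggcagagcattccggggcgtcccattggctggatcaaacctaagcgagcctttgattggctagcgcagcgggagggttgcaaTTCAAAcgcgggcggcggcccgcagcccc
Top2a: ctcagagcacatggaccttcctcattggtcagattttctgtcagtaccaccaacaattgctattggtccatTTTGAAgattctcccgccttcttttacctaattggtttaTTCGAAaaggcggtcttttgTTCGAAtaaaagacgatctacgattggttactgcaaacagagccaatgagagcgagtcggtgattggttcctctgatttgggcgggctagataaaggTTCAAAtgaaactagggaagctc
Mcm6: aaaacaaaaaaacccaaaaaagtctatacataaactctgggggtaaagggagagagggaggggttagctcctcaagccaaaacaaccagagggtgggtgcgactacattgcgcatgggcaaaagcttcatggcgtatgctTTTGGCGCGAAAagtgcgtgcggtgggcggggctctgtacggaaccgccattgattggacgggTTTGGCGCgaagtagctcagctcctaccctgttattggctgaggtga
Mcm7: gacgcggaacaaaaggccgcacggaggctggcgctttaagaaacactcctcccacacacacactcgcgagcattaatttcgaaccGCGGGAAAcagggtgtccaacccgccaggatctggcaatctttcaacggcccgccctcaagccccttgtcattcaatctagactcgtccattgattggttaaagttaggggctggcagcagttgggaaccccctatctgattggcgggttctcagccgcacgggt
Ube2c has 1 CHR, which ends 23 bases before the start, and Top2a has 4, the nearest ending 17 bases before it. Mcm6 has 3 E2F matches, of which 2 overlap on opposite strands, and Mcm7 has 1. The start meant here is that of RefSeq. GENCODE begins Ube2c at 164769898 and Mcm7, on the minus strand, at 138172422. By GENCODE the CHR of Ube2c and the whole Mcm7 window therefore lie within the genes. A match is a description of letters in a window, not evidence of binding.

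Kept barcodes had at least 1000 UMIs (unique molecules counted) and at most 10% of them from mitochondrial genes. There were 11018 in the control, 14109 in the MRL/lpr and 16586 in the treated library. The study names about 8000 captured cells and does not say whether this is per library. The libraries held 94903163, 103319588 and 90812138 UMIs, and the median kept barcode had 5069, 3716 and 2727 UMIs, so depth per barcode was highest in the control. Between 35 and 61 barcode sequences were kept in both libraries of a pair, and none of these passed the cycling rule in both. The 40 members took 18148 UMIs in the control, 25953 in the MRL/lpr and 28636 in the treated library, and each member had a UMI in every library. Levels below are CPM, the UMIs of a gene for every 1000000 UMIs of the barcodes in question. CPM was not scaled by transcript length, so it compares a gene between libraries and classes, not a gene with another. A higher CPM of a class may mean more dividing cells or more mRNA in each, and these cannot be told apart from summed counts.

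All 25 mitotic members had a higher CPM in the treated than in the control library, and 24 of them also had a higher CPM in the MRL/lpr library with an interval of the ratio above no difference. Mki67, which encodes the Ki-67 proliferation antigen (chr7:135689784-135716361 in GRCm38), had 1.57 CPM [1.30 to 1.87] in the control, 5.28 [4.76 to 5.84] in the MRL/lpr and 7.67 [7.03 to 8.35] in the treated library. Top2a, the topoisomerase that untangles sister chromosomes (chr11:98992943-99024189), had 4.61 [4.14 to 5.12], 10.9 [10.2 to 11.7] and 19.3 [18.2 to 20.3] CPM. Cdk1, the kinase that drives entry into mitosis (chr10:69335146-69352938), had 7.38 [6.78 to 8.01], 13.2 [12.4 to 14.1] and 21.5 [20.4 to 22.6] CPM. For these 3 genes the control was lowest and the treated library highest, with no overlap of the intervals.

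Of the cyclins that activate Cdk1, Ccnb1 had 0.757, 1.78 and 2.12 CPM in control, MRL/lpr and treated libraries, Ccnb2 had 2.34, 4.01 and 6.97, and Ccna2 had 0.992, 1.82 and 4.17. Among the chromosomal passenger genes, whose complex corrects chromosome attachment, Birc5 (survivin, chr11:117849251-117855743) had 2.13 CPM [1.81 to 2.48] in the control, 13.2 [12.4 to 14.1] in the MRL/lpr and 18.4 [17.4 to 19.4] in the treated library. Its partners Aurkb and Cdca8 had 0.548, 3.08 and 4.01 CPM and 1.99, 4.99 and 7.07 CPM. Cenpa, the histone variant of the centromere, had most UMIs of the mitotic members in the control, at 13.9, 16.9 and 22.6 CPM. The kinetochore genes Cenpe and Cenpf had 1.04, 2.04 and 2.46 CPM and 2.32, 5.18 and 7.17 CPM. The checkpoint kinase gene Bub1 was at 0.366, 0.965 and 1.80 CPM, and Bub1b had 1.12, 3.20 and 3.72 CPM.

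Ube2c, which tags mitotic proteins for destruction with the anaphase-promoting complex (chr2:164769898-164778822), had 5.00 [4.51 to 5.53], 12.6 [11.8 to 13.5] and 23.0 [21.8 to 24.1] CPM and took most UMIs of the mitotic members in the treated library. The spindle pole kinases Aurka and Plk1 had 1.81, 1.81 and 2.47 CPM and 0.535, 1.03 and 1.77 CPM. The spindle genes Tpx2, Nusap1, Kif11 and Hmmr lay between 0.705 and 4.53 CPM in the control and between 2.66 and 9.66 CPM in the treated library. Among genes of the central spindle and cytokinesis, Prc1 had 3.41, 7.10 and 11.2 CPM, Kif23 had 1.85, 5.27 and 5.50 CPM, and Kif20a had 0.483, 1.12 and 1.60 CPM. Cdca3, which promotes mitotic entry, had 0.418, 2.19 and 3.32 CPM. Aurka was the mitotic member whose control and MRL/lpr levels were nearest to each other.

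Summed, replication members took more UMIs than mitotic members in each library, 13263, 16203 and 14939 against 4885, 9750 and 13697. Pcna alone took 6398, 7278 and 6133 of these. Single members did not all go that way: Cdc6 was seen in 20, 60 and 72 barcodes and Cdk1 in 354, 627 and 899. Pcna, the sliding clamp of the polymerases (chr2:132249162-132253314), had 83.5 CPM [81.5 to 85.6] in the control, 100.3 [98.1 to 102.7] in the MRL/lpr and 89.8 [87.5 to 92.0] in the treated library, and a Pcna UMI was present in 37.6%, 31.6% and 25.1% of kept barcodes. No mitotic member other than Cenpa and Cdk1 was seen in more than 4% of the barcodes of a library. Empty droplets, here barcodes with 1 to 100 UMIs, held Pcna at 67.1, 77.4 and 77.2 CPM, which is free RNA and lies near the level in kept barcodes. Tyms, which makes thymidylate, had 18.8, 22.2 and 24.8 CPM.

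Genes of the MCM helicase, which unwinds DNA at the fork, did not share an order. Mcm5 (chr8:75109569-75128439) had 2.09 CPM [1.78 to 2.44], 6.38 [5.82 to 6.99] and 5.85 [5.29 to 6.46], and Mcm2 had 2.92, 7.40 and 7.14 CPM, so both were lowest in the control. Mcm3 had 13.2, 11.2 and 10.6 CPM and was highest in the control. Mcm4 was highest in the MRL/lpr library, at 13.0, 20.2 and 15.9 CPM. Mcm6 and Mcm7 had 10.4, 13.2 and 14.8 CPM and 10.0, 12.4 and 13.1 CPM. Of the helicase's partners, Cdc45 had 3.77, 2.88 and 1.73 CPM, with the control highest, Gins2 had 1.95, 3.93 and 4.49 CPM, and the helicase loader Cdc6 had 0.326, 0.951 and 1.17 CPM. Rrm1, the large subunit of ribonucleotide reductase, had 8.72, 8.60 and 11.4 CPM, while the small subunit Rrm2 had 2.60, 5.12 and 7.98 CPM. Tk1, which salvages thymidine, had 1.097, 5.87 and 6.61 CPM, and Uhrf1, which maintains DNA methylation after replication, had 0.770, 2.67 and 3.22 CPM.

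**Figure D1:**
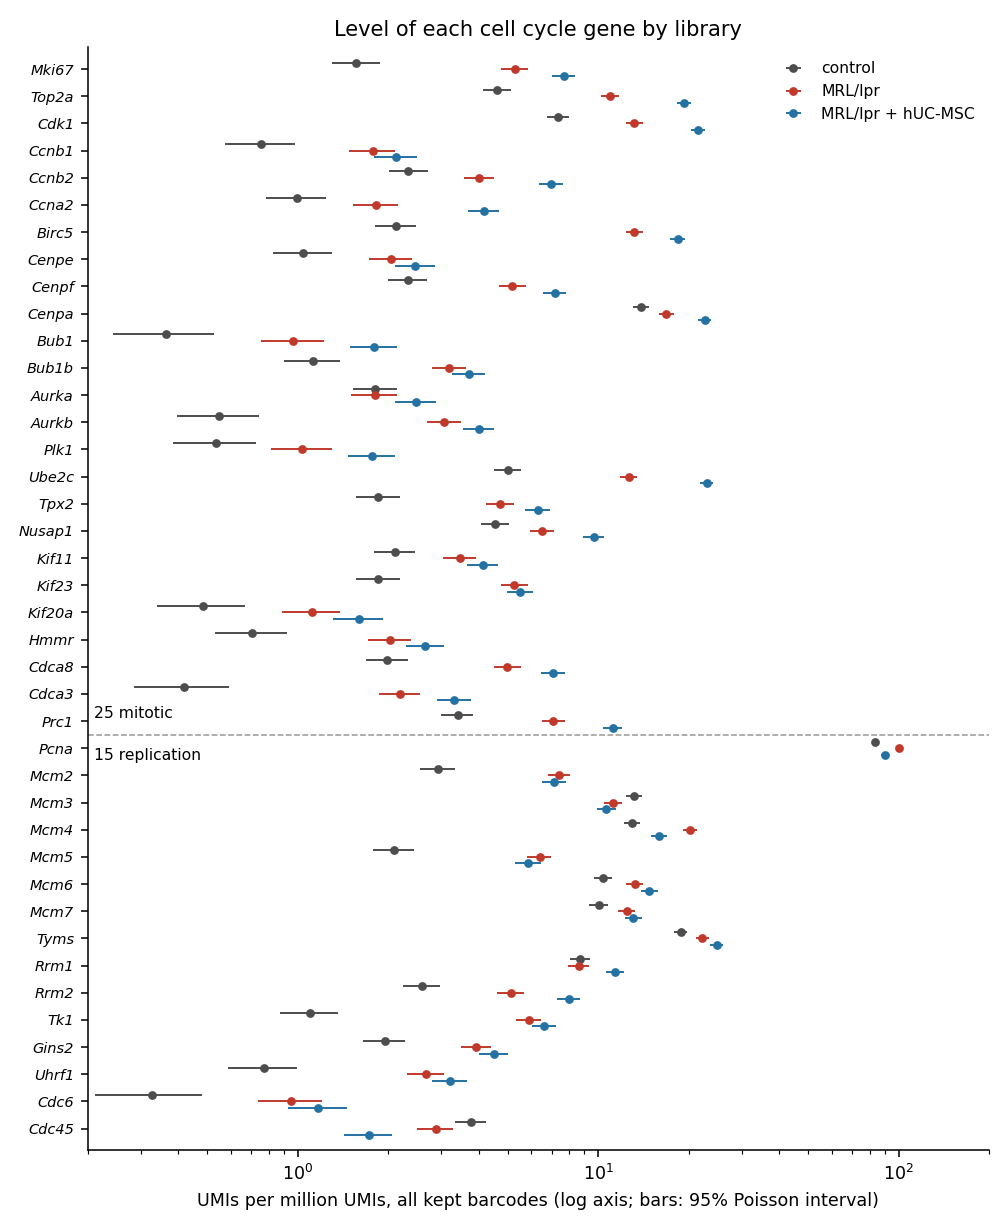
CPM of each of the 40 members over all kept barcodes of the control, MRL/lpr and treated libraries, on a log axis, with bars for the exact 95% Poisson interval. Mitotic members stand above the dashed line and replication members below it. For Mki67, Top2a and Cdk1 the control is lowest and the treated library highest, while Pcna lies between 83.5 and 100.3 in all 3 libraries and Cdc45 is highest in the control.

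Summed over the list, mitotic members had 63.8 CPM [62.0 to 65.6] in the control, 134.4 [131.8 to 137.1] in the MRL/lpr and 200.4 [197.1 to 203.8] in the treated library. Replication members had 173.2 [170.2 to 176.2], 223.4 [220.0 to 226.9] and 218.6 [215.1 to 222.2] CPM. In empty droplets the mitotic sum was 102.7, 124.9 and 166.5 CPM and the replication sum 153.2, 210.7 and 203.3 CPM, so free RNA carried both lists in the same order of libraries.

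Few barcodes held most of the mitotic signal. No member was seen in 36.1% of control, 41.2% of MRL/lpr and 47.7% of treated barcodes, and 20 or more members were seen in 20, 83 and 119 barcodes. The barcodes with most members showed 34 of 40 in the control, 33 in the MRL/lpr and 33 in the treated library. A barcode was called cycling with at least 3 members seen, which gave 1262 barcodes in the control (11.5% [10.9 to 12.1]), 1606 in the MRL/lpr (11.4% [10.9 to 11.9]) and 1527 in the treated library (9.21% [8.77 to 9.66]). This order goes against that of the summed CPM of the members, and the call followed depth: cycling barcodes had a median of 11064, 8630 and 7878 UMIs, against 4786, 3461 and 2554 for the others. No mitotic member was seen in 41.3%, 32.8% and 22.3% of the barcodes called cycling. No order of the libraries is read from this share.

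At least 3 of the 25 mitotic members were seen in 73 control barcodes (0.663% [0.520 to 0.832]), 294 MRL/lpr barcodes (2.08% [1.85 to 2.33]) and 448 treated barcodes (2.70% [2.46 to 2.96]), called mitotic barcodes below. The name refers to the members seen and does not place a cell in mitosis. Mitotic barcodes held 52.4%, 66.5% and 72.6% of all mitotic UMIs of their library. When each barcode was thinned at random to 1000 UMIs, at least 3 of the 40 members remained in 37, 187 and 283 barcodes (0.336%, 1.33% and 1.71%), and at least 3 mitotic members in 25, 106 and 186 (0.227% [0.147 to 0.335], 0.751% [0.616 to 0.908] and 1.12% [0.967 to 1.29]). At 1000 UMIs the control share was therefore lowest and the treated share highest, the reverse of the order by the cycling rule as counted. At 2000 UMIs, with shallower barcodes left out, the log2 ratio of the share with 3 of the 40 members was 1.88 [1.55 to 2.22] for MRL/lpr over control, and for treated over untreated it was 0.199 [-0.0088 to 0.406], so that difference was not detectable.

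Within ranges of depth the cycling rule gave like shares in the deepest barcodes. Among barcodes with 16000 or more UMIs, 66.0% of control, 63.8% of MRL/lpr and 65.7% of treated barcodes were called cycling, against 0.818%, 2.35% and 2.17% of those with 1000 to under 2000 UMIs. The share with 3 or more mitotic members in the deepest range was 6.10% [4.38 to 8.25], 10.3% [7.73 to 13.3] and 16.9% [13.3 to 20.9]. In the range from 4000 to under 8000 UMIs it was 0.265% [0.141 to 0.453], 1.66% [1.29 to 2.10] and 3.52% [2.93 to 4.19]. In the 2 lowest ranges the intervals of the MRL/lpr and treated libraries overlapped, with the MRL/lpr share the higher in the lowest (1.20% against 0.967%), and in the deepest range they met.

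**Figure D2:**
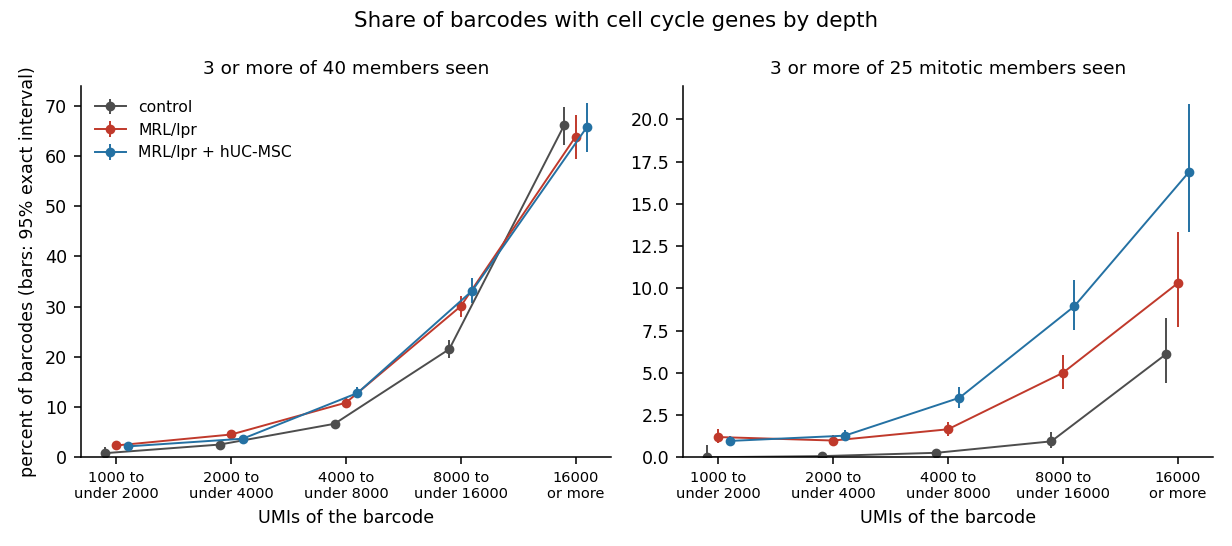
Percent of kept barcodes with 3 or more of the 40 members (left) and with 3 or more of the 25 mitotic members (right) by UMIs per barcode, for the 3 libraries, with exact 95% binomial intervals. On the left the share climbs with depth to 66.0%, 63.8% and 65.7% in every library; on the right the treated library reaches 16.9% and the control 6.10% in the deepest range.

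Phase was described by which list was seen more fully in a cycling barcode. Replication-leaning barcodes, with the larger share of the 15 replication members seen, made up 91.8% [90.1 to 93.2] of cycling barcodes in the control, 81.8% [79.8 to 83.7] in the MRL/lpr and 70.7% [68.3 to 72.9] in the treated library, and 103, 289 and 432 barcodes were mitosis-leaning. After thinning the split turned: 14 replication-leaning against 22 mitosis-leaning barcodes in the control, 76 against 110 in the MRL/lpr and 87 against 193 in the treated library. Genes outside the 40 served as a check on the call, at 1000 UMIs per barcode. The replication check list of 12 genes included Ccne2, Hells and Pclaf. In the control it had 168.4 CPM in replication-leaning barcodes against 153.4 in barcodes not called cycling, so the 2 were close. In the MRL/lpr and treated libraries it had 189.5 against 97.8 and 256.7 against 87.1 CPM. In mitosis-leaning barcodes this list was higher still, at 301, 335.6 and 444.4 CPM, with no overlap with the intervals of replication-leaning barcodes. Over all cycling barcodes this list thus went against the names of the phase calls. The mitosis check list of 18 genes, among them Cdc20, Cks2, Ttk and Pttg1, had 854.4, 795.8 and 861.1 CPM in mitosis-leaning barcodes against 48.4, 102.1 and 99.5 in barcodes not called cycling. Among mitotic barcodes alone, 31 of 73 control, 102 of 294 MRL/lpr and 125 of 448 treated barcodes were replication-leaning. In them the replication check list was at 645.2, 1069 and 1072 CPM. In the mitosis-leaning mitotic barcodes, which numbered 41, 189 and 307, it was at 512.2, 444.4 and 563.5 CPM. In the control these intervals overlapped [394.1 to 996.4 and 317.1 to 782.9]. Phase calls from few UMIs also read free RNA, and its part in these calls was not tested.

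Barcodes were placed in classes by markers of cell types, with a marker counted only above the level that free RNA would give, at least 3 markers of the class and a lead of 2 over any other. Since this rule itself asks for 3 markers, their presence is no check on the class names. No class was given to 6.17%, 19.4% and 23.7% of barcodes in the control, MRL/lpr and treated libraries. Podocyte-like barcodes, identified with genes such as Nphs1 and Synpo, served as a class known to divide rarely. They numbered 2591, 1099 and 253, at a median of 6853, 7197 and 5270 UMIs, and the cycling rule called 6.33%, 6.92% and 9.09% of them. The members with most UMIs included Pcna (56.1, 63.4 and 64.2 CPM) and Cdc45 (11.6, 12.6 and 14.5 CPM) in every library. The other leading members were Rrm1, Mcm4 and Mcm7 in the control, Mcm4, Tyms and Ube2c in the MRL/lpr library, and Rrm1, Mcm4 and Tyms in the treated library. Their summed mitotic level was 15.4, 55.8 and 47.3 CPM, below that of empty droplets. Mitotic barcodes numbered 3, 8 and 2, with 0 of 2591 [up to 0.142%], 4 of 1099 and 1 of 253 left after thinning. In the MRL/lpr library the 8 mitotic barcodes held 302 of the 464 mitotic UMIs of the class. At least 3 markers of a second class were seen in 75% of these 8, against 21.45% of the others. The part of barcodes with more than 1 cell in these values was not tested. In the control the share of podocyte-like barcodes called by the cycling rule went from 3.43% at 4000 to under 8000 UMIs to 41.9% at 16000 or more. It is thus no fixed background for classes of another depth.

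Endothelial-like barcodes, with Pecam1, Cdh5 and Kdr among their markers, were the largest class at 6171, 5035 and 6500 barcodes and medians of 4340, 3789 and 2798 UMIs. The cycling rule called 10.1%, 13.5% and 9.46% of them. Mitotic barcodes numbered 20 (0.324% [0.198 to 0.5001]), 84 (1.67% [1.33 to 2.06]) and 153 (2.35% [2.00 to 2.75]), and after thinning 12 (0.194% [0.101 to 0.339]), 25 (0.497% [0.322 to 0.732]) and 89 (1.37% [1.101 to 1.682]). The leading members were Pcna (116.5, 122.4 and 89.5 CPM) and Tyms (26.8, 32.5 and 39.9 CPM). Next came Mcm3, Cenpa and Mcm4 in the control, Mcm4, Cenpa and Mcm3 in the MRL/lpr library, and Cenpa, Ube2c and Cdk1 in the treated library. The mitotic sum was 76.9, 104.9 and 211.3 CPM, of which 56.0%, 60.1% and 75.5% lay in the mitotic barcodes. Empty droplets had 102.7, 124.9 and 166.5 CPM, so the control and MRL/lpr sums of the class lay below free RNA and the treated sum above it. Of the mitotic barcodes, 75% had over 3000 genes in the control, 45.2% in the MRL/lpr and 47.7% in the treated library.

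Markers of other cell types were also counted in those mitotic barcodes. The 10 endothelial markers had 5982, 7486 and 8100 CPM in them against 9575, 8981 and 10027 CPM in the other endothelial-like barcodes. The 10 mesangial or stromal markers had 1855, 2335 and 1266 CPM against 804.0, 1360 and 1217, with only Col3a1 at 0 in the control. T and NK markers had 449.7, 77.2 and 148.5 CPM against 29.3, 69.3 and 49.5, while Cd3d, Cd3e, Cd3g, Trac, Trbc2 and Cd2 were at 0 in the control. Mononuclear phagocyte markers had 0 UMIs for all 10 genes in the control, and 612.6 and 406.6 CPM against 350.6 and 587.2 in the MRL/lpr and treated libraries. At least 3 markers of a second class were seen in 20%, 40.5% and 15.7% of these barcodes against 4.13%, 18.2% and 14.2% of the others. Barcodes that hold more than 1 cell were not removed from these values, and their part in them was not tested except by the alternatives given at the end.

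Mesangial or stromal-like barcodes, marked by Pdgfrb, Itga8 and collagens, numbered 1075, 1802 and 2084, and their depth differed most, with medians of 8006, 3696 and 4050 UMIs. The cycling rule called 26.4%, 11.4% and 14.4% of them, an order that goes against their summed mitotic level of 47.3 CPM [43.8 to 51.0], 152.7 [145.2 to 160.6] and 189.2 [181.9 to 196.6]. The control sum lay below that of empty droplets and the others above. Mitotic barcodes numbered 24 (2.23%), 39 (2.16%) and 81 (3.89%), and 2, 16 and 16 after thinning (0.186% [0.0225 to 0.670], 0.888% [0.508 to 1.44] and 0.768% [0.440 to 1.24]). Pcna led with 61.1, 88.7 and 72.1 CPM, followed by Cdk1 with 20.9, 31.4 and 36.0 CPM. Mcm4, Tyms and Mcm7 came next in the control, Mcm4, Tyms and Cenpa in the MRL/lpr library, and Top2a, Ube2c and Mcm4 in the treated library. At least 3 markers of a second class were seen in 33.3%, 53.8% and 58.0% of their mitotic barcodes against 21.3%, 36.1% and 35.5% of the others.

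Mononuclear phagocyte-like barcodes, which carry C1qa, C1qb and Csf1r and stand for macrophages and monocytes, numbered 62 in the control, 1548 in the MRL/lpr and 2697 in the treated library. Their medians were 4810, 5072 and 3474 UMIs. The cycling rule called 11.3%, 15.5% and 7.23%, and 2, 79 and 55 were mitotic barcodes (3.23% [0.393 to 11.2], 5.10% [4.06 to 6.32] and 2.04% [1.54 to 2.65]). After thinning 0, 25 and 18 remained, which is up to 5.78% in the control, 1.61% [1.05 to 2.37] and 0.667% [0.396 to 1.05]. Their mitotic sum was 61.7 CPM [38.2 to 94.3], 275.6 [264.7 to 286.8] and 152.5 [145.4 to 159.9], so here the untreated MRL/lpr library was highest. It lay above the empty droplets of its library, and the control and treated sums lay below theirs (102.7 and 166.5 CPM). In the MRL/lpr library Pcna (123.0 CPM), Birc5 (39.2), Top2a (28.4), Ube2c (26.2) and Cenpa (21.8) led, and in the treated library Pcna (114.3), Birc5 (18.7), Cenpa (18.4), Top2a (14.8) and Cdk1 (12.4). In the 2 mitotic barcodes of the control, T and NK markers had 6201 CPM (121 UMIs), against 0 in the other 60. T and NK markers had 9.82 and 7.15 CPM in the mitotic barcodes of the MRL/lpr and treated libraries against 19.1 and 18.6 in the others, and mesangial or stromal markers had 466.4 and 664.7 CPM against 198.7 and 274.5. Their part in the result was not tested. The 62 control barcodes held only 21 mitotic UMIs, and in them Pcna, Mcm3, Mcm4, Mcm6 and Mcm2 led with 22 to 4 UMIs each.

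T and NK-like barcodes, with Cd3 genes or Nkg7 and Ncr1, numbered 165, 840 and 661 at medians of 2689, 2007 and 1767 UMIs. They had the highest mitotic sum of the classes with at least 50 barcodes in each library, 1375 CPM [1281 to 1474] in the control, 359.7 [334.5 to 386.4] in the MRL/lpr and 793.1 [749.0 to 839.2] in the treated library. Mitotic barcodes numbered 13 of 165 (7.88% [4.26 to 13.1]), 25 of 840 (2.98% [1.94 to 4.36]) and 50 of 661 (7.56% [5.67 to 9.85]), and 10, 10 and 29 after thinning (6.06% [2.94 to 10.9], 1.19% [0.572 to 2.18] and 4.39% [2.96 to 6.24]). In the control 90.8% of the mitotic UMIs of the class came from its 13 mitotic barcodes. Cenpa (173.1 CPM), Top2a (171.4), Ube2c (169.7), Nusap1 (109.1) and Mcm6 (105.6) led in the control. Pcna (82.5), Cenpa (78.2), Mcm6 (48.9), Birc5 (47.5) and Mcm4 (43.6) led in the MRL/lpr library, and Top2a (109.6), Cenpa (108.3), Pcna (107.7), Birc5 (100.5) and Ube2c (91.9) in the treated library. Of barcodes with a Cd3 gene, 11 of 107, 17 of 742 and 45 of 580 were mitotic, and of those without, 2 of 58, 8 of 98 and 5 of 81. In T and NK-like mitotic barcodes the markers of the class had 7728, 12262 and 8616 CPM against 11928, 11137 and 10835 in the others. Podocyte markers had 796.2, 91.3 and 45.9 CPM against 190.6, 240.6 and 129.9, and mononuclear phagocyte markers 80.4, 1066 and 331.9 against 68.1, 422.8 and 701.7. Their part in the result was not tested. The control, with few such cells, thus had the highest share and also the widest interval. That interval overlapped those of both other libraries as counted, and that of the treated library after thinning.

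Smaller classes added few mitotic barcodes. Erythroid-like barcodes were mitotic in 1 of 56, 0 of 15 and 10 of 22 cases, and those of the treated library had Ube2c at 574.6 CPM, Birc5 at 303.0, Cenpa at 229.8, Top2a at 193.3 and Cdk1 at 151.5. Dendritic cell-like barcodes were mitotic in 3 of 12 in the MRL/lpr and 9 of 31 in the treated library, again with Ube2c, Birc5 and Top2a in the lead (378.2, 240.7 and 189.1 CPM, and 264.4, 147.3 and 139.7 CPM). Neutrophil-like barcodes were mitotic in 0 of 29, 0 of 291 and 4 of 211. Proximal tubule-like barcodes numbered 54, 555 and 80 with 0, 5 and 1 mitotic, and distal nephron-like barcodes 121, 172 and 98 with 2, 0 and 2 mitotic. B and plasma-like barcodes were mitotic in 0 of 14, 0 of 9 and 1 of 19. Barcodes without a class gave 8 of 680, 51 of 2731 and 80 of 3930.

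**Figure D3:**
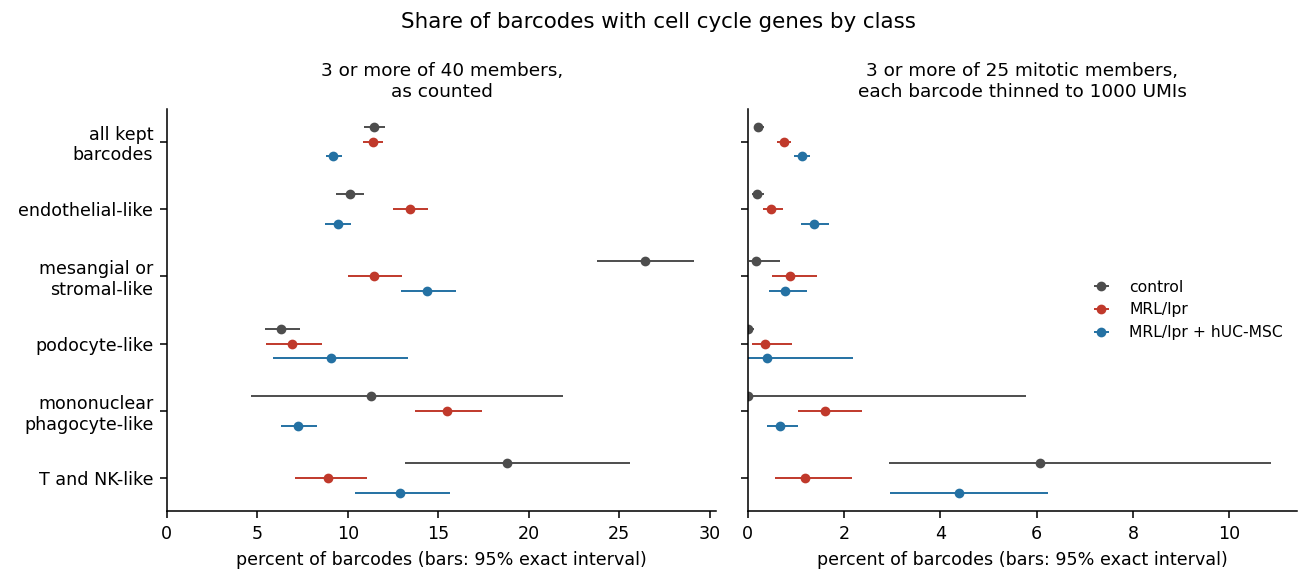
Percent of barcodes with 3 or more of the 40 members as counted (left) and with 3 or more of the 25 mitotic members after thinning each barcode to 1000 UMIs (right), by class and library, with exact 95% binomial intervals. The mesangial or stromal-like control share is 26.4% on the left and 0.186% on the right, and the endothelial-like share on the right runs from 0.194% in the control to 1.37% in the treated library.

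**Figure D4:**
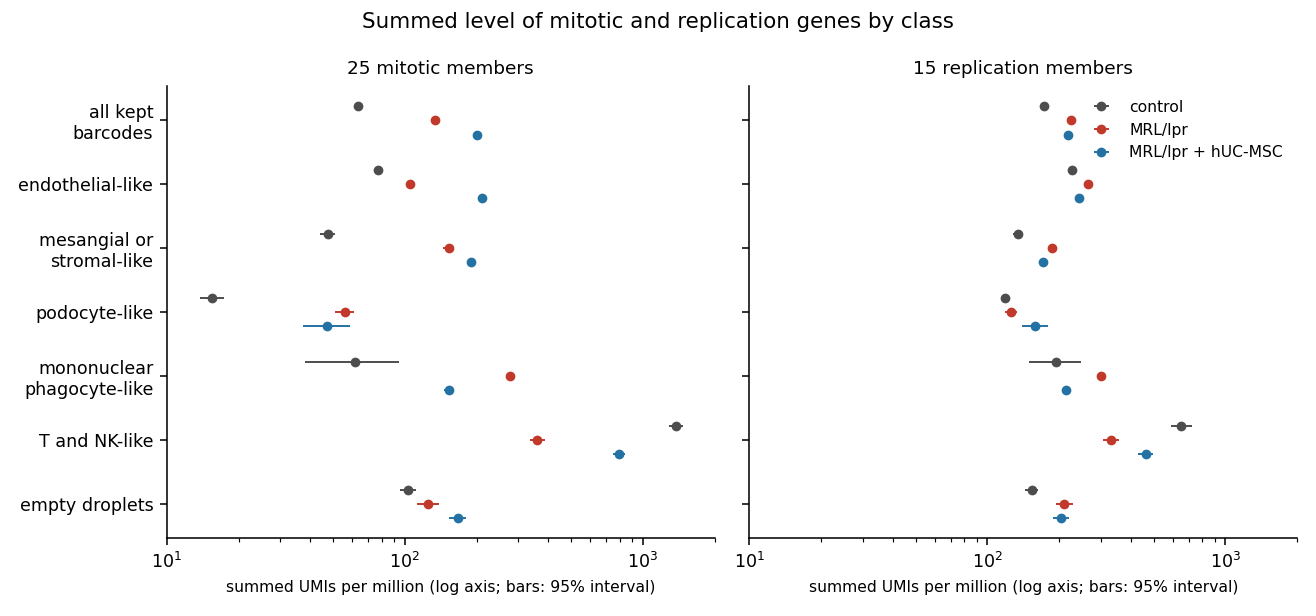
Summed CPM of the 25 mitotic members (left) and the 15 replication members (right) by class and library on log axes, with exact 95% Poisson intervals, and empty droplets in the last line. Among classes with at least 50 barcodes in each library, T and NK-like barcodes lie highest on the left, at 1375 in the control, and podocyte-like barcodes lie below the empty droplets of the same library.

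The first comparison, MRL/lpr over control, asks which members differ in diseased glomeruli. Over all kept barcodes, 16 of 25 mitotic members were at least 2-fold higher in MRL/lpr mice and 0 were 2-fold lower, and 6 of 15 replication members were 2-fold higher and 0 lower. Of all 16834 genes with at least 50 UMIs over both libraries, 17.2% were 2-fold higher and 5.86% 2-fold lower. Of the members counted as higher, Aurkb, Cdca3, Kif20a, Bub1 and Cdc6 had under 50 UMIs in the control (42, 32, 37, 28 and 25). They reached the limit only with the MRL/lpr UMIs, so the counts are not read further. The median log2 ratio was 1.23 for mitotic and 0.64 for replication members against 0.046 for all genes. The sums of the lists differed by 1.08 [1.03 to 1.13] and 0.37 [0.33 to 0.40] on the log2 scale. Podocyte-like barcodes, at 15.4 mitotic CPM in the control, were 23.5% of control and 7.79% of MRL/lpr barcodes. Mononuclear phagocyte-like barcodes numbered 62 and 1548 and held 21 of 4885 and 2406 of 9750 mitotic UMIs. The part of class sizes in the pooled member ratios was not tested. The largest ratios were those of Birc5, with 957 UMIs against 163 (log2 ratio 2.63 [2.39 to 2.88]), Aurkb (223 against 42, 2.49 [2.01 to 2.999]), Tk1 (2.42 [2.08 to 2.78]) and Cdca3 (159 against 32, 2.39 [1.84 to 2.99]). At the other end stood Cdc45, with 209 UMIs against 289 (-0.39 [-0.65 to -0.13]), Mcm3 (-0.24 [-0.37 to -0.10]), Rrm1 (-0.020 [-0.18 to 0.14]) and Aurka (-0.0070 [-0.36 to 0.35]). Cdc45 had 11.6 [10.1 to 13.2] and 12.6 [10.3 to 15.3] CPM in podocyte-like barcodes, which held 222 of its 289 control UMIs and numbered 2591 of 11018 and 1099 of 14109, and a log2 ratio of 0.38 [-0.36 to 1.12] in endothelial-like barcodes. The part of class sizes in its pooled ratio was not tested. The share of mitotic barcodes differed by a log2 ratio of 1.65 [1.28 to 2.04] as counted and 1.73 [1.09 to 2.42] after thinning.

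In endothelial-like barcodes the disease comparison was smaller in level. Of the 22 mitotic and 14 replication members with at least 50 UMIs, 6 and 5 were at least 2-fold higher and 0 lower, beside 11.3% and 4.63% of all genes. Low members such as Aurkb, Cdca3 and Uhrf1 passed that limit mainly through the MRL/lpr library, so these counts are not read further. The sums differed by 0.45 [0.37 to 0.53] and 0.22 [0.18 to 0.27] on the log2 scale. Birc5 (78 UMIs in the control and 207 in the MRL/lpr library, log2 ratio 1.79 [1.41 to 2.19]), Uhrf1 (1.66 [0.95 to 2.41]), Mcm5 (1.63 [1.22 to 2.06]) and Tk1 (1.61 [1.00 to 2.24]) had the largest ratios. Mcm3 was lower in MRL/lpr mice (-0.60 [-0.78 to -0.43]), as was Cenpa (-0.22 [-0.39 to -0.051]), while the intervals of Cenpe (-0.22 [-0.95 to 0.49]) and Aurka (-0.21 [-0.80 to 0.37]) held 0. The share of mitotic barcodes differed by 2.36 [1.65 to 3.15] as counted and 1.35 [0.31 to 2.48] after thinning.

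In mesangial or stromal-like barcodes the summed mitotic members were higher in MRL/lpr mice. Only 14 mitotic and 11 replication members had 50 UMIs, of which 12 and 3 were at least 2-fold higher and 0 lower, beside 8.52% and 4.75% of all genes. A member low in the control entered this list mainly through its MRL/lpr count, so the counts are not read further. Cenpf had 6 UMIs in the control and 103 in the MRL/lpr library (log2 ratio 4.63 [3.46 to 6.11]), Ube2c 8 and 96 (4.11 [3.08 to 5.37]), Birc5 11 and 126 (4.05 [3.16 to 5.09]) and Prc1 16 and 84 (2.92 [2.14 to 3.79]). The replication genes Mcm7 (0.025 [-0.38 to 0.42]), Mcm6 (0.081 [-0.36 to 0.52]), Tyms (0.15 [-0.13 to 0.44]) and Mcm4 (0.33 [0.073 to 0.59]) were nearest to the control. The sums, which need no such filter, differed by 1.69 [1.56 to 1.82] for mitotic and 0.48 [0.39 to 0.57] for replication members. The mitotic barcode share differed by a log2 ratio of -0.045 [-0.81 to 0.75] as counted and 2.26 [0.17 to 5.42] after thinning, the latter from 2 control barcodes. In the MRL/lpr library 67.5% of the mitotic UMIs of the class lay in 39 barcodes, and in the control 24.9% lay in 24.

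Mononuclear phagocyte-like and T and NK-like barcodes were few in the control. As a share of the class, mitotic barcodes differed by a log2 ratio of 0.66 [-1.24 to 3.73] in the former and by -1.40 [-2.43 to -0.31] in the latter as counted, and by -2.35 [-3.77 to -0.93] in the latter after thinning. In T and NK-like barcodes the control was thus the higher library.

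The second comparison, treated over untreated MRL/lpr mice, asks which members differ after hUC-MSCs, and it shares the untreated library with the first. Over all kept barcodes 1 of 25 mitotic members, Ccna2, was at least 2-fold higher and 0 were lower, and no replication member passed 2-fold in either direction, beside 3.05% of all genes higher and 8.26% lower. The mitotic sum was nevertheless higher in the treated library by 0.58 [0.54 to 0.61] on the log2 scale, and the replication sum differed by -0.031 [-0.063 to 0.00096]. The largest ratios were those of Ccna2 (285 UMIs against 132, log2 ratio 1.20 [0.89 to 1.51]), Bub1 (0.90 [0.46 to 1.34]), Ube2c (0.86 [0.75 to 0.98]) and Top2a (0.82 [0.69 to 0.94]). The lowest were those of Cdc45 (118 against 209, -0.74 [-1.08 to -0.41]), Mcm4 (-0.34 [-0.46 to -0.23]), Pcna (-0.16 [-0.21 to -0.11]) and Mcm5 (-0.12 [-0.32 to 0.071]). For Cdc45 the log2 ratio was 0.025 [-0.71 to 0.76] in endothelial-like barcodes and podocyte-like barcodes had 12.6 and 14.5 CPM, while their number went from 1099 to 253. In share, mitotic barcodes differed by 0.37 [0.16 to 0.59] as counted and 0.58 [0.23 to 0.94] after thinning, while by the cycling rule as counted it differed by -0.31 [-0.41 to -0.20].

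By class the direction of the treated ratio was not shared. In endothelial-like barcodes all 25 mitotic and 14 of 15 replication members had 50 UMIs, and 14 mitotic and 1 replication member were at least 2-fold higher and 0 lower, beside 4.16% and 3.96% of all genes. Of these, Bub1 passed the limit mainly through the treated library. Ccna2, Cenpe, Hmmr and Cdca3 also had under 50 UMIs in the untreated library (43, 29, 32 and 32), so the counts are not read further. The medians were 1.01 and 0.064 against 0.11 for all genes, and the sums differed by 1.01 [0.94 to 1.08] and -0.13 [-0.18 to -0.079]. Ccnb2 had 236 UMIs against 75 (log2 ratio 1.64 [1.25 to 2.03]), Ccna2 122 against 43 (1.49 [0.97 to 2.02]), Top2a 463 against 172 (1.41 [1.15 to 1.67]) and Ube2c 628 against 244 (1.35 [1.13 to 1.57]). Replication genes lay at the low end, with Mcm4 (436 against 667, -0.63 [-0.81 to -0.46]), Pcna (2332 against 3150, -0.45 [-0.53 to -0.37]), Mcm5 (-0.20 [-0.53 to 0.14]) and Mcm3 (-0.11 [-0.31 to 0.099]). Between libraries the mitotic barcode share differed by 0.50 [0.10 to 0.90] as counted and 1.46 [0.81 to 2.17] after thinning. The interval held 0 without the barcodes that Scrublet scored highest for holding more than 1 cell (0.395 [-0.027 to 0.825]). It also held 0 within the study's limits of 200 to 3000 genes (0.377 [-0.164 to 0.933]). By depth, the untreated share was the higher from 1000 to under 2000 UMIs, 1.73% [0.899 to 3.01] against 0.787% [0.450 to 1.27]. The treated share was the higher in the deeper ranges. There the intervals were apart from 4000 to under 16000 UMIs and overlapped from 2000 to under 4000 and at 16000 or more.

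Mesangial or stromal-like barcodes gave a smaller and mixed picture. Of 21 mitotic and 13 replication members with 50 UMIs, 1 of each was at least 2-fold higher and 0 lower, beside 2.89% and 3.79% of all genes, and the mitotic sum differed by 0.31 [0.22 to 0.40]. The members counted, Aurka and Rrm2, passed the limit of 50 UMIs mainly through the treated library, so these counts are not read further. Rrm2 had 82 UMIs against 15 (1.99 [1.19 to 2.89]), Aurka 39 against 13 (1.13 [0.19 to 2.16]), Top2a 277 against 102 (0.98 [0.65 to 1.32]) and Ube2c 251 against 96 (0.93 [0.58 to 1.28]). Mcm5 (-0.43 [-1.07 to 0.21]), Mcm4 (-0.40 [-0.66 to -0.13]), Cenpe (-0.35 [-1.19 to 0.50]) and Pcna (-0.30 [-0.43 to -0.17]) were lowest. As a share of the class, mitotic barcodes differed by 0.84 [0.28 to 1.44] as counted and by -0.21 [-1.31 to 0.89] after thinning, so a difference at equal depth was not detectable.

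Mononuclear phagocyte-like barcodes went the other way. Of 21 mitotic and 14 replication members with 50 UMIs, 0 were 2-fold higher and 9 and 4 were 2-fold lower in the treated library, beside 1.92% and 3.31% of all genes. Low members such as Ccnb1 and Cdc6 passed the limit of 50 UMIs mainly through the untreated library, so these counts are not read further. The sums, which need no such limit, differed by -0.85 [-0.94 to -0.76] and -0.49 [-0.57 to -0.41]. The lowest ratios were those of Rrm2 (49 UMIs against 113, -1.57 [-2.09 to -1.08]), Kif11 (29 against 60, -1.42 [-2.11 to -0.75]), Ccnb1 (19 against 39, -1.40 [-2.28 to -0.58]) and Cenpe (27 against 51, -1.28 [-2.01 to -0.58]). The highest, still below 0, were those of Pcna (-0.11 [-0.22 to 0.013]), Rrm1 (-0.22 [-0.64 to 0.21]), Cenpa (-0.24 [-0.53 to 0.049]) and Cdk1 (-0.36 [-0.71 to -0.0072]). In share, mitotic barcodes differed by -1.32 [-1.85 to -0.81] as counted and -1.27 [-2.23 to -0.34] after thinning. In each range of depth under 16000 UMIs the untreated share was the higher, but the intervals overlapped. From 4000 to under 8000 UMIs it was 3.09% [1.97 to 4.60] untreated against 1.31% [0.658 to 2.34] treated. From 8000 to under 16000 UMIs it was 16.3% [11.9 to 21.4] against 13.6% [9.27 to 18.9]. Median depth was also lower in the treated class, 3474 against 5072 UMIs, and the median number of the 10 class markers seen was 4 against 5.

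In T and NK-like barcodes the sums were higher in the treated library. Only 12 mitotic and 11 replication members had 50 UMIs, of which 8 and 2 were at least 2-fold higher and 0 lower, beside 1.45% and 5.21% of all genes, and the sums differed by 1.14 [1.01 to 1.27] and 0.49 [0.33 to 0.64]. Low members such as Tk1 passed the limit of 50 UMIs mainly through the treated library, so these counts are not read further. Tk1 had 36 UMIs against 14 (1.82 [0.89 to 2.82]), Ube2c 140 against 60 (1.68 [1.23 to 2.14]), Top2a 167 against 73 (1.65 [1.24 to 2.06]) and Rrm2 59 against 31 (1.38 [0.73 to 2.06]). Mcm5 (0.17 [-0.55 to 0.88]), Mcm7 (0.18 [-0.35 to 0.70]), Mcm4 (0.19 [-0.27 to 0.65]) and Mcm3 (0.27 [-0.51 to 1.03]) had intervals that held 0. Between libraries the mitotic barcode share differed by 1.35 [0.63 to 2.10] as counted and 1.88 [0.80 to 3.08] after thinning. Whether the ratios differ between classes was not tested, since each class has 1 library per group.

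**Figure D5:**
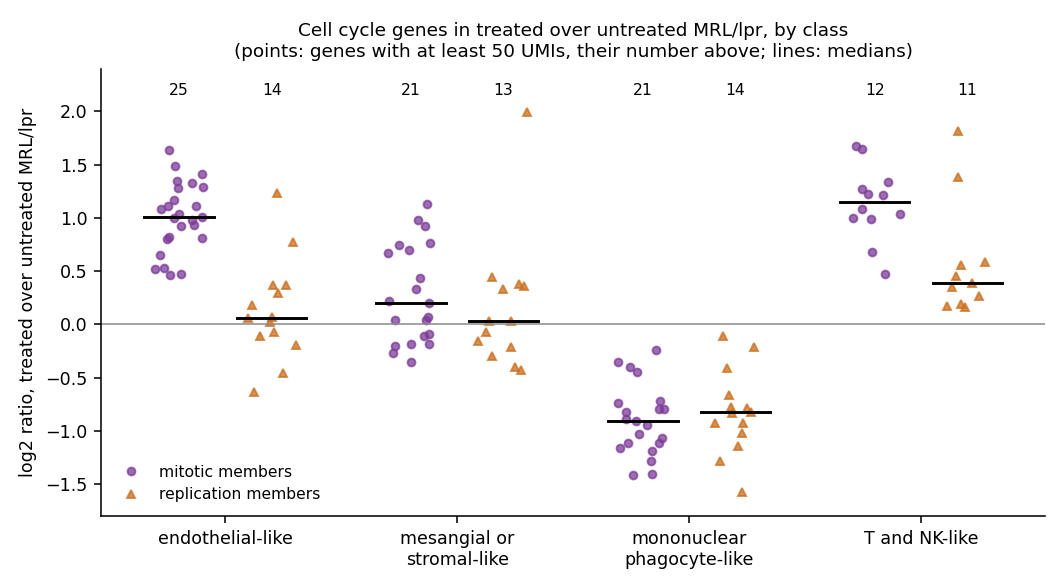
Log2 ratio of each member with at least 50 UMIs, treated over untreated MRL/lpr, in 4 classes, with mitotic members as circles and replication members as triangles, horizontal bars at the medians and the number of genes above. Medians of the mitotic members are 1.01 in endothelial-like, 0.20 in mesangial or stromal-like, -0.90 in mononuclear phagocyte-like and 1.15 in T and NK-like barcodes.

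A list of 82 other genes of the pathway was read beside the members: regulators of G1 and S phase entry, cell cycle inhibitors and p53 targets, further replication genes, and checkpoint and mitotic control genes. Over all kept barcodes 28 of 82 were at least 2-fold higher in MRL/lpr than in control mice and 2 were lower, beside 17.2% and 5.86% of all genes. The E2F genes E2f8 (47 UMIs against 5, log2 ratio 3.31 [1.99 to 5.00]) and E2f2 (2.70 [2.23 to 3.20]) and the Cdk subunit gene Cks2 (2.24 [2.13 to 2.35]) were highest, of which E2f8 passed the limit of 50 UMIs mainly through the MRL/lpr library. The Cdk inhibitor gene Cdkn1c (-1.16 [-1.17 to -1.15]), which is abundant in podocytes, E2f1 (-1.16 [-1.26 to -1.05]) and Gins3 (-0.73 [-1.02 to -0.44]) were lowest. Podocyte-like barcodes made up a smaller part of the MRL/lpr library, 1099 of 14109 against 2591 of 11018, and the part of this in the Cdkn1c value was not tested. In endothelial-like barcodes 74 of the 82 had 50 UMIs, of which 14 were 2-fold higher and 2 lower (11.3% and 4.63% of all genes), led by Pclaf (1.99), Wee1 (1.96) and Myc (1.87), with Foxm1 (-1.26), Gins3 (-1.01) and Slbp (-0.84) lowest. In mesangial or stromal-like barcodes 12 of 58 were higher and 2 lower (8.52% and 4.75% of all genes), led by E2f7 (3.23), Pclaf (2.62) and Cdkn2c (2.11), with Cdkn1c (-1.11), Mycn (-1.04) and Rpa2 (-0.80) lowest. A gene low in 1 library can pass the limit of 50 UMIs mainly through the other, so the counts by class are not read further.

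In the treated comparison over all kept barcodes 1 of 82 genes was at least 2-fold higher and 4 were lower, beside 3.05% and 8.26% of all genes. All 5 belonged to the 13 inhibitors and p53 targets, whose median log2 ratio was -0.20 against 0.034 for all genes. Cdkn2a, which encodes the inhibitors of Cdk4 and Cdk6 and of Mdm2 (922 UMIs against 426, 1.20 [1.03 to 1.37]), Cdkn2c (0.90 [0.80 to 0.99]) and Ccne1 (0.83 [0.39 to 1.28]) were highest, and Cdkn1c (-2.25 [-2.27 to -2.22]), the antiproliferative gene Btg2 (-1.75 [-1.77 to -1.73]) and Gadd45a (-1.57 [-1.62 to -1.51]) were lowest. Podocyte-like barcodes numbered 1099 of 14109 and 253 of 16586, and the part of this in the Cdkn1c value was not tested. In endothelial-like barcodes 6 of 79 were higher and 2 lower, beside 4.16% and 3.96% of all genes. Cdkn2a had 185 UMIs against 30 (2.61 [2.04 to 3.21]), followed by Ttk (1.42) and Anln (1.16), while Btg2 (-1.82), Cdkn1a, the p53 target p21 (-1.19), and Cdkn1c (-0.86) were lowest. Mesangial or stromal-like barcodes had 2 of 64 higher and 6 lower (2.89% and 3.79% of all genes), with Cdkn2c (1.33), Cdkn2a (1.19) and Smc4 (0.92) at the top and Btg2 (-2.46), Cdkn1a (-1.82) and Myc (-1.79) at the bottom. Mononuclear phagocyte-like barcodes had 0 of 66 higher and 6 lower (1.92% and 3.31% of all genes), with E2f3 (0.43), Cdkn2a (0.32) and Chaf1b (0.25) highest and Prim1 (-1.48), Rpa2 (-1.24) and Stmn1 (-1.16) lowest. T and NK-like barcodes had 6 of 49 higher and 4 lower (1.45% and 5.21% of all genes), with Pclaf (1.66), E2f3 (1.34) and Dut (1.30) highest and Gadd45a (-1.52), Btg2 (-1.18) and Cdkn1c (-1.18) lowest. Btg2 was thus among the 3 lowest genes of this list in 4 of the 5 treated comparisons.

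Genes outside the 40 that went with the cycling call were ranked by the lowest of the 3 libraries' ratios at 1000 UMIs per barcode. Of 3790 genes with enough UMIs, the first 15 included Cxcl13, Bgn, Zfp804a, Agtr1a, Tmpo, Col8a1, Frk, Gja5, Il6, Pla2g4a, Sorbs2, Vcam1, Cp and Cep112, with lowest log2 ratios from 0.80 for Cxcl13 to 0.49 for Cep112. Tmpo, a nuclear envelope protein, was also among the genes of the mitotic barcodes below. Bgn, Agtr1a and Vcam1 are known as genes of mesangial and stromal cells. When mitotic barcodes were used in place of the rule, a choice made after the values were seen, the first 5 of 567 genes were Pttg1 (securin, lowest log2 ratio 3.41), Stmn1 (3.24), Hmgn2 (2.32), Selenoh (2.30) and Hmgb2 (2.17), of which Pttg1, Stmn1 and Hmgb2 were on the pathway list. Tubb5, which encodes tubulin, followed at 1.80. Of the first 15 genes by the cycling rule 0 were on the pathway list, against 3 of the first 15 here, out of fewer ranked genes. A gene needed 20 UMIs in mitotic barcodes of each library here, against 50 in cycling barcodes. Pttg1, Stmn1 and Hmgb2 had 20, 42 and 49 in the control and would not have been ranked at 50. The 2 counts are therefore not like for like.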

How the data were processed

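Single-cell RNA sequencing counts of 3 mouse glomerular libraries were analysed. The deposited values are whole-number UMI counts per gene and barcode from unfiltered matrices. The submitters' processing notes name Cell Ranger, STAR and the mm10 build, while the sources used here differ on the Cell Ranger version. Groups were taken from the labels. The members and lists were chosen with earlier results of these data known.

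Barcodes with at least 1000 UMIs and at most 10% mitochondrial UMIs were kept. Barcodes with 1 to 100 UMIs served as free RNA. A marker was counted where it exceeded the free RNA expectation, and a class needed 3 markers and a lead of 2. Doublets were not removed in the main values. An alternative removed the 971, 1593 and 2201 barcodes with the highest Scrublet scores (through scanpy 1.11.5), called Scrublet doublets below. These were 8.81%, 11.3% and 13.3% of kept barcodes, shares set by the number of kept barcodes and not by a call of Scrublet. The study's DoubletFinder step and ribosomal limit were not applied. Thinning drew 1000 UMIs per barcode without replacement. Ratios needed 50 UMIs over both libraries, 2-fold was the limit for a count, and intervals were exact at 95% (Poisson, Clopper-Pearson, or conditional binomial for ratios), computed with Python 3.11.15, numpy 2.4.6, scipy 1.17.1 and pandas 2.3.3. Scripts were tested on simulated data. With 1 library per group no test was run.

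Named with values were Mki67, Top2a, Cdk1, Pcna and Mcm5, the 5 members with most UMIs in each class, the 4 members at each end of a comparison, the 3 other pathway genes at each end, and the first 15 genes that went with the cycling call. A gene among these is not reported here. All 40 members were also given by role. Promoters came from RefSeq and gene positions from GENCODE, both on GRCm38. Alternatives changed the UMI, mitochondrial and gene limits, the number and kind of members, depth, the class gate and doublets.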

Additional observations from a re-analysis of the deposited data

Results flagged for a closer look

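The summed mitotic members, treated over untreated MRL/lpr, pointed in opposite directions between classes. The log2 ratio was 1.01 in endothelial-like and 1.14 in T and NK-like barcodes and -0.85 in mononuclear phagocyte-like barcodes. With 1 library per group the difference between classes was not tested.

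The UMIs of empty droplets enter no ratio between libraries, but they set the free RNA level above which a marker counts. These droplets also held mitotic members above the control level of 102.7 CPM, at 124.9 in the MRL/lpr and 166.5 in the treated library. The part of this free RNA in the levels of kept barcodes was not tested.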

How the results depend on the processing

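No paired analysis was possible because each group has 1 library, and for the same reason no replicate could be left out. Of 102 alternative values of the log2 ratio of the cycling share, 49 stayed within the counting interval of the main value, 39 left it and 14 had the opposite sign to a main value whose interval excluded 0. For MRL/lpr over control in all kept barcodes the main interval held 0, so its changes of sign are not among the 14. The cause was not tested. MRL/lpr over control in all kept barcodes (-0.00899) became -0.257 and 0.203 with UMI minimums of 500 and 2000, -0.129 and 0.842 with 2 and 5 members, 1.65 with 3 mitotic members, 1.98 and 1.88 when thinned to 1000 and 2000 UMIs, and 0.289 within 200 to 3000 genes. In endothelial-like barcodes (0.413) it became 0.0661 and 2 with 2 and 5 members, 2.36 with mitotic members, and 1.72 and 1.89 when thinned. Treated over untreated in T and NK-like barcodes (0.526) became 0.0198 and 1.62 with 2 and 5 members, 1.35 with mitotic members, and 1.35 and 1.46 when thinned. In mononuclear phagocyte-like barcodes (-1.10) it became -0.609 and -1.58 with 2 and 5 members and -1.46 when thinned to 1000 UMIs. The treated ratio changed sign in all kept barcodes (-0.306), to 0.374 with mitotic members and 0.364 and 0.199 when thinned, and in endothelial-like barcodes (-0.507), to 0.497, 0.829 and 0.0559. At 2000 UMIs both intervals held 0 [-0.0088 to 0.406 and -0.280 to 0.393], so no difference was detectable there. A UMI minimum of 2000 gave -0.106 and -0.223 for these, and 5 members gave -0.0289 and -0.0684.

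Chosen after seeing the data were the rule without barcodes holding 3 or more markers of a second class, which kept all 6 ratios within the main interval, and 3 mitotic members combined with thinning to 1000 UMIs, with such barcodes left out, with Scrublet doublets removed, and within 200 to 3000 genes. In that order MRL/lpr over control became 1.73, 1.81, 1.87 and 2.73 in all kept and 1.35, 2.17, 2.54 and 3.51 in endothelial-like barcodes. The value of 2.73 [2.01 to 3.55] rests on 17 control barcodes and that of 3.51 [2.19 to 5.20] on 5. Treated over untreated became 0.578, 0.599, 0.277 and 0.424 in all kept, 1.46, 0.924, 0.395 [-0.027 to 0.825] and 0.377 [-0.164 to 0.933] in endothelial-like, and 1.88, 1.59, 1.33 and 1.38 in T and NK-like barcodes. In mononuclear phagocyte-like barcodes it was -1.38 without second-class barcodes and -1.51 without Scrublet doublets. The number of barcodes limits the control values of the immune classes, with 62 mononuclear phagocyte-like and 165 T and NK-like barcodes.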
